A study of Mus musculus with 20 samples.

Results

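The genes examined were 8 cathepsins, Ctsa, Ctsb, Ctsc, Ctsd, Ctsh, Ctsl, Ctss and Ctsz, and 2 cystatins, Cst3 and Cst7. They were taken by symbol from the 21315 gene symbols of the deposited tables, and all 10 were found. RNA was sequenced from microglia of 9-month-old C57BL/6 mice in 20 libraries, sorted from brain as CD45mid CD11b+ cells. The groups not selected any further were WT (n = 3), C3aRKO (n = 3), APP-KI (n = 3) and APP-KI;C3aRKO (n = 5). APP-KI mice carry the NL-G-F mutations and a humanized amyloid-β sequence in their own App gene, so no transgene promoter is involved, and they form amyloid plaques. C3aRKO mice lack C3ar1, the receptor for the complement fragment C3a, in every cell and not in microglia alone. The other groups, WT C3aR+ (n = 3) and APP-KI C3aR+ (n = 3), came from littermates carrying a Td-tomato reporter in a floxed C3ar1 allele, and in these the sort also required Td-tomato. Both of these groups carry the reporter allele, controls included, while the 4 unselected groups do not. The sources used here do not say how many mice gave each library, and p-values measure the spread between libraries.

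Cathepsins are the main proteases of the lysosome. They are made as inactive proenzymes, carried there largely by mannose 6-phosphate receptors, and activated in its acidic interior, where they break down proteins delivered by phagocytosis, endocytosis and autophagy. Most members studied here are cysteine proteases, while Ctsd encodes an aspartic protease and Ctsa a serine carboxypeptidase. Cystatins bind cysteine cathepsins and block them, and they do not inhibit cathepsin D or cathepsin A. Cst3 encodes cystatin C, which is secreted, and Cst7 encodes cystatin F, which immune cells send to their own lysosomes. Microglia, the macrophages of the brain, express cathepsins at high levels, and Cst7 is a familiar marker of microglia gathered at amyloid plaques.

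The promoters were read because many lysosomal genes are known to carry the E-box CACGTG near their start, the core of the site bound by the factor TFEB and its relatives. RefSeq promoter windows, from 250 bases before to 50 bases after the start site in GRCm38.p6, were given for 8 of the 10 members, with 2 start sites for Ctsa and no entry for Ctsb and Ctsh. On either strand, CACGTG occurred in a window of 3 of these 8 genes, Ctsa, Ctsd and Ctsl, and in 7.15% of all 32851 windows. The longer TCACGTG, which contains the E-box, occurred in Ctsa and Ctsd and in 3.77% of windows. The 3 windows with an E-box are printed to show where it lies, and those of both cystatins to show windows without one. Each runs 5′ to 3′ on the gene's strand, with CACGTG in capitals.
Ctsd (chr7:142387778-142388077, minus strand): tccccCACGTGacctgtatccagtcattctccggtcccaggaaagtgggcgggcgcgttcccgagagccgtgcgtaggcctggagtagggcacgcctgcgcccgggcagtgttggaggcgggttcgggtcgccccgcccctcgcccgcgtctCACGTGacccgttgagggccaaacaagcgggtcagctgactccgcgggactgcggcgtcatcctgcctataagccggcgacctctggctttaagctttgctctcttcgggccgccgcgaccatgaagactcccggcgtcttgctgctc
Ctsa, second start site (chr2:164833523-164833822, plus strand): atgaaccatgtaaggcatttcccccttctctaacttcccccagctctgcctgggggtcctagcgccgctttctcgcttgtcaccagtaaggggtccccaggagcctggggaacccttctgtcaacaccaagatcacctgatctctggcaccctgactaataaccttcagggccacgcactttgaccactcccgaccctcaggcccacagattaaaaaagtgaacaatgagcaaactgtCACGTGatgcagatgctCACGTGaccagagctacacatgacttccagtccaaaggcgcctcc
Ctsl (chr13:64370471-64370770, minus strand): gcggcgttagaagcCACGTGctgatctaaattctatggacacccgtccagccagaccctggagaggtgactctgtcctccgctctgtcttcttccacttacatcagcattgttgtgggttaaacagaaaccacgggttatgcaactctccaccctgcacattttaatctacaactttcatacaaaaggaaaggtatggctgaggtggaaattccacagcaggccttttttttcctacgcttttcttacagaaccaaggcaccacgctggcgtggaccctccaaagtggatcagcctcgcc
Cst7 (chr2:150570165-150570464, plus strand): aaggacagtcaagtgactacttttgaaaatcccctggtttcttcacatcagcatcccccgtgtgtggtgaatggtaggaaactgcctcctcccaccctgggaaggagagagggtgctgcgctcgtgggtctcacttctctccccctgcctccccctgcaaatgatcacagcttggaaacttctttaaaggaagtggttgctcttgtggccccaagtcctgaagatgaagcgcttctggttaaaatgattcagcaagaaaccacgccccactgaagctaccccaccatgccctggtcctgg
Cst3 (chr2:148875463-148875762, minus strand): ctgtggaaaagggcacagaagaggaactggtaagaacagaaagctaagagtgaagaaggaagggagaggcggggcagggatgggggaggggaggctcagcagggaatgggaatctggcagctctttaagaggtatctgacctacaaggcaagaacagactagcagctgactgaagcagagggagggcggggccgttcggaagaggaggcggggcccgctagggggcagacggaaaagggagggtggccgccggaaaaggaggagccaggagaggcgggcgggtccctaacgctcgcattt
Counted from the start site, the E-boxes of Ctsd began at -245 and -98, those of Ctsa at -12 and +6, and that of Ctsl at -236. The letters GAGGAAGT, a form of the site of the macrophage factor PU.1, occurred on either strand in the windows of Ctsc and Ctss and in 3.2% of all windows. The AP-1 site TGACTCA (5.2% of windows) and the C/EBP site TTGCGCAA (0.183%) were searched on both strands and occurred in no member's window. These matches describe letters only.

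Values below are read counts divided by the 75th percentile of the counts in the same library, as deposited, and multiplied here by 35.2 in all libraries, which brings them near CPM. They are called scaled values. Libraries held between 13939559 and 76608464 reads on genes. Fold changes are differences of log2(scaled value + 1), given with the SE of limma, and adjusted p is the Benjamini-Hochberg value over all genes that limma tested. Changes of genes near a scaled value of 1 are understated on this scale.

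Of the 14 unselected libraries, 5 stood apart in the number of genes with reads, and this bears on every comparison among them. APP-KI 4, C3aRKO 1, C3aRKO 2 and APP-KI;C3aRKO 1 had reads on 12387 to 13250 genes, and APP-KI 5 on 21219, against 14888 to 17450 in the other 15 libraries. All 5 belong to library number series 24, as read from the library numbers in the labels, which also holds WT 4 and APP-KI;C3aRKO 2, while series 26 holds the other 7. Both series hold all 4 genotypes, and the series is a term in the fits. The C3aR-sorted libraries are all of series 22, so the sort, the reporter allele and the series cannot be told apart. Levels were not tested between sorted and unselected libraries, and only the sizes of their APP-KI differences were. C3ar1, the targeted gene, was at 276, 329.9 and 340.0 in WT, 165, 315 and 388 in APP-KI, 68.1, 39.9 and 65.7 in C3aRKO and 80.4, 77.4, 69.4, 75.9 and 61.9 in APP-KI;C3aRKO. Every knockout library was thus below every unselected library with the gene. It was at 71.0, 81.2 and 37.6 in WT C3aR+ and 383, 251 and 201 in APP-KI C3aR+. The WT C3aR+ libraries therefore lay at the level of the knockouts although they were sorted for C3ar1 reporter expression. Microglial markers led the marker lists in every group, their 9 genes summing to 9136 or more in each library, whereas 6 T and NK cell markers summed to at most 32.9 and 6 neuronal markers to at most 21.8. Sums were 26.7 to 987 for 8 markers of neutrophils and monocytes, 209 to 400 for 6 of astrocytes, 107 to 228 for 6 of oligodendrocytes and at most 88.4 for 4 of choroid plexus epithelium.

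In the libraries, the 8 cathepsins together took between 0.967% and 3.91% of reads. Compared per kilobase of exon, the mean level over a group was highest for Cst3, at 8147 to 11408 scaled reads per kb, and next highest in every group for Ctss, at 3621 to 6142. Ctsd followed at 1367 to 5273 per kb, and Ctsc was lowest among the cathepsins at 59.0 to 75.3 per kb. Cst7 spanned the widest range, from 3.27 per kb in C3aRKO to 1438 per kb in APP-KI C3aR+. Order within a gene was mostly not resolved. For all 10 members the libraries of APP-KI, APP-KI;C3aRKO and APP-KI C3aR+ overlapped wherever 2 of these were neighbors in the order of means. Cst7 alone had a gap between all groups with the mutated App gene and all groups without it.

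**Figure D1:**
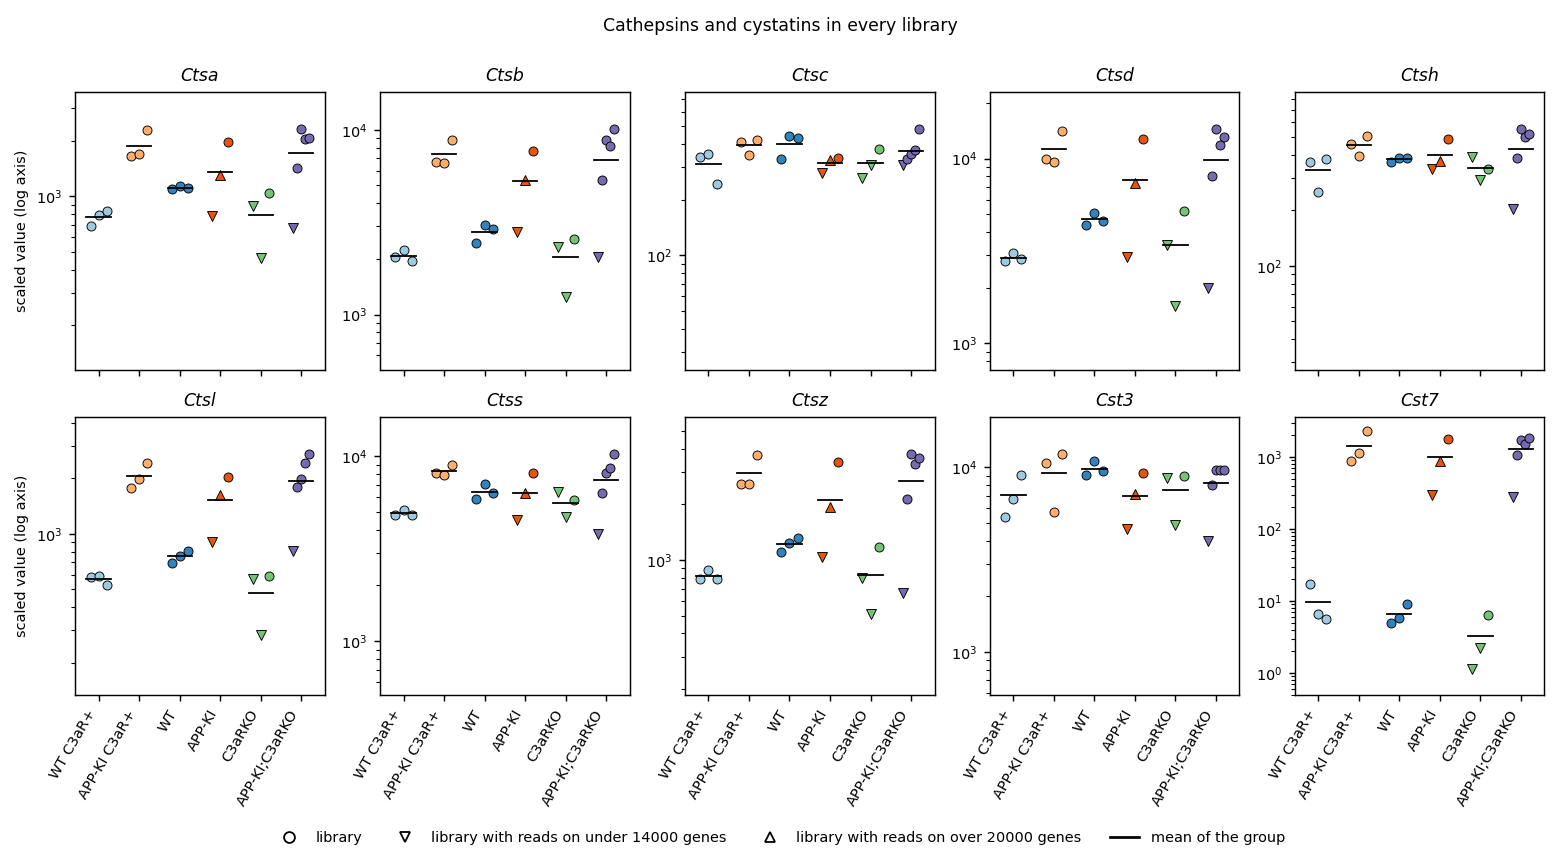
Scaled value of each of the 10 genes in all 20 libraries on log axes, 1 panel a gene, with groups along the x axis and bars at group means. Triangles pointing down are the 4 libraries with reads on under 14000 genes and the triangle pointing up is the one with reads on over 20000, and in the Cst7 panel the 3 groups with mutated App sit at 280 or higher while the others sit at 17.0 or lower.

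The first comparison asked how plaque-bearing mice differ from WT within C3aR-positive microglia. In APP-KI C3aR+, 7 members rose, all but Ctsc, Ctsh and Cst3, and none fell. Among all 12312 genes tested 22.7% were called, 13% as higher. The median change of the 10 members was 1.54, against -0.17 over all genes. Such bulk values cannot tell fewer cells of a kind from less RNA in each cell.

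Cathepsin D is the major aspartic protease of the lysosome. Its gene, Ctsd, was at 2785, 3072 and 2869 in WT C3aR+ and 9959.6, 9625 and 14064 in APP-KI C3aR+ (log2 change 1.93 ± 0.22, adjusted p = 0.00038). Every APP-KI library was over 3 times the highest WT library, and the third was the highest. For the genes that follow, WT C3aR+ values stand before those of APP-KI C3aR+. Ctsa, whose carboxypeptidase also shields β-galactosidase and neuraminidase from breakdown, was at 690.1, 788 and 833 against 1641, 1702 and 2294 (1.27 ± 0.16, adjusted p = 0.00065). The groups again did not overlap, with a smaller gap.

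The cysteine cathepsins Ctsb, Ctsl and Ctsz rose by nearly the same amount. Ctsb, an endopeptidase that can also trim dipeptides from the carboxyl end, was at 2045, 2238 and 1945 in WT C3aR+ and 6724, 6586 and 8791 in APP-KI C3aR+ (1.82 ± 0.19, adjusted p = 0.00025). Ctsl, a strong endopeptidase, was at 584, 594 and 530.1 against 1775, 1968 and 2406 (1.84 ± 0.14, adjusted p = 5.8e-05). Ctsz, a carboxypeptidase, was at 792, 882 and 791 against 2583, 2579 and 3708 (1.83 ± 0.17, adjusted p = 0.00015). In all 3 the lowest APP-KI library was above the highest WT library, and the spread within WT was small.

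The other cysteine cathepsins had smaller differences. Ctss, which cuts the invariant chain of MHC class II and stays active at neutral pH, was at 4817, 5136 and 4797 against 8156, 7936 and 8931 (0.76 ± 0.20, adjusted p = 0.025). The groups did not overlap, but the call was lost without WT C3aR+ 1, 2 or 3 or APP-KI C3aR+ 1, at adjusted p of 0.0915, 0.0877, 0.105 and 0.0527. Ctsh, an aminopeptidase, was at 363, 252 and 378 against 454, 391 and 505, a difference of 0.46 that did not pass (0.08 to 0.84, 95% interval, adjusted p = 0.078). Ctsc, the dipeptidyl peptidase that activates granule serine proteases, was at 342, 355 and 245 against 413, 350.2 and 421, overlapping groups, with an interval of -0.01 to 0.69 (adjusted p = 0.14).

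The cystatins parted. Cst7 was at 17.0, 6.59 and 5.66 in WT C3aR+ and at 874, 1120.0 and 2258 in APP-KI C3aR+, a fitted 134-fold rise (7.07 ± 0.41, adjusted p = 1.5e-05). Behind these stood 135 to 530 reads in the WT libraries and 16916 to 28724 in the APP-KI libraries. Cst3 was at 5343, 6729.6 and 9039 against 10547, 5737 and 11710.1, and these overlapped, with APP-KI C3aR+ 2 inside the WT range. Its interval of -0.36 to 1.11 was wide (adjusted p = 0.43). In all, 8 members had no overlap between groups, all of them higher in APP-KI C3aR+, and 17.8% of genes tested were likewise higher without overlap.

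**Figure D2:**
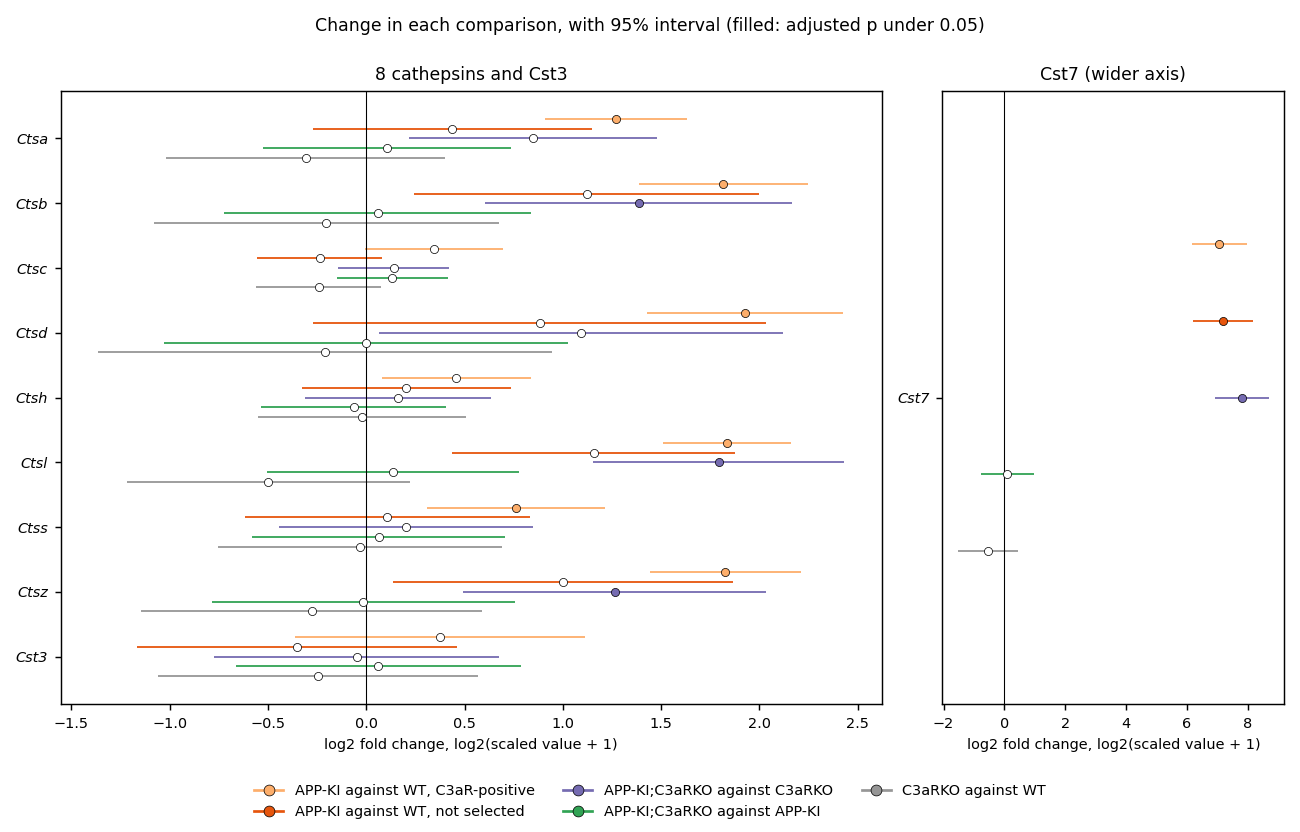
Log2 fold change with its 95% interval for each gene in 5 comparisons, Cst7 on a wider axis, with filled points for an adjusted p under 0.05. Filled points are found for 7 genes between C3aR-positive groups and for none between APP-KI;C3aRKO and APP-KI or between C3aRKO and WT.

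Across unselected microglia, where the same question was asked without the C3aR sort, Cst7 was the only member called between APP-KI and WT. Of all 12406 genes 4.14% were called, 2.22% as higher. Cst7 was at 4.90, 5.71 and 9.21 in WT and 299.96, 864 and 1785 in APP-KI, a fitted 145-fold rise (7.18 ± 0.46, adjusted p = 2.8e-07). The lowest APP-KI value was that of APP-KI 4, a library with few genes, and it still lay far above WT.

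The cathepsins had the same order of libraries, with APP-KI 4 lowest, APP-KI 5 between and APP-KI 6 highest, and WT values again stand first. Ctsb was at 2435, 3040.4 and 2894 in WT and 2815, 5374 and 7699 in APP-KI (1.12 ± 0.41, adjusted p = 0.2). Ctsd was at 4371, 5099 and 4577 against 2920.5, 7339 and 12829.8 (0.88 ± 0.54, adjusted p = 0.63), so APP-KI 4 lay below every WT library. Ctsl was at 699, 755 and 808 against 902, 1619 and 2038 (1.16 ± 0.34, adjusted p = 0.078), the one cathepsin with no overlap, and 12.8% of genes were likewise higher without overlap. Ctsz was at 1104, 1232 and 1318 against 1040.1, 1927 and 3397 (1.00 ± 0.40, adjusted p = 0.27), and Ctsa at 1089, 1139 and 1112 against 781, 1294 and 1970.3 (0.44 ± 0.33, adjusted p = 0.76). Ctss was at 5879, 7073 and 6330.0 against 4510.3, 6315 and 8142, so that WT lay within the APP-KI range. Changes of Ctsh, Ctss and Ctsc were 0.20, 0.11 and -0.24, with intervals from -0.33 to 0.74, -0.62 to 0.83 and -0.55 to 0.08. Cst3 was at 9110.3, 10837 and 9486 against 4608, 7103 and 9308, with an interval of -1.17 to 0.46.

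Without the 4 libraries with few genes, a choice made after these values were seen, 6 members were called higher in APP-KI, and 27.9% of genes were called, 13.2% as higher. Ctsa (0.59 ± 0.14, adjusted p = 0.0142), Ctsb (1.30 ± 0.15, adjusted p = 0.000352), Ctsd (1.14 ± 0.19, adjusted p = 0.00215), Ctsl (1.32 ± 0.13, adjusted p = 0.000148) and Ctsz (1.17 ± 0.15, adjusted p = 0.000509) joined Cst7 (7.51 ± 0.18, adjusted p = 6.21e-08). Ctsc, Ctsh, Ctss and Cst3 did not pass. The count was 6 as well with APP-KI 5 left out too (15.7% of genes called, 7.88% as higher), which leaves APP-KI 6 alone in its group with the spread taken from the other groups. Within series 24, where WT 4 is the only WT library, the difference was 0.68 for Ctsb, 0.08 for Ctsd, 0.79 for Ctsl and 6.44 for Cst7. Within series 26, where APP-KI 6 is the only APP-KI library, it was 1.38, 1.41, 1.38 and 7.75 in the same order. In both series the lone library is assumed to vary like those of the other groups. In series 24, 1 member, Cst7, was called, and 0.346% of genes were. In series 26, 7 members were called, Cst7 and the cathepsins other than Ctsc and Ctss, and 19.6% of genes were. Whether the series differed was not tested. Whether the number of genes with reads had a part in the smaller cathepsin differences over all 14 libraries was not tested. Microglial markers were lower in every APP-KI library than in WT. They summed to 10719 in APP-KI 4 and to 18100 and 22853 in the other APP-KI libraries, against 27922 to 29979 in WT.

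**Figure D3:**
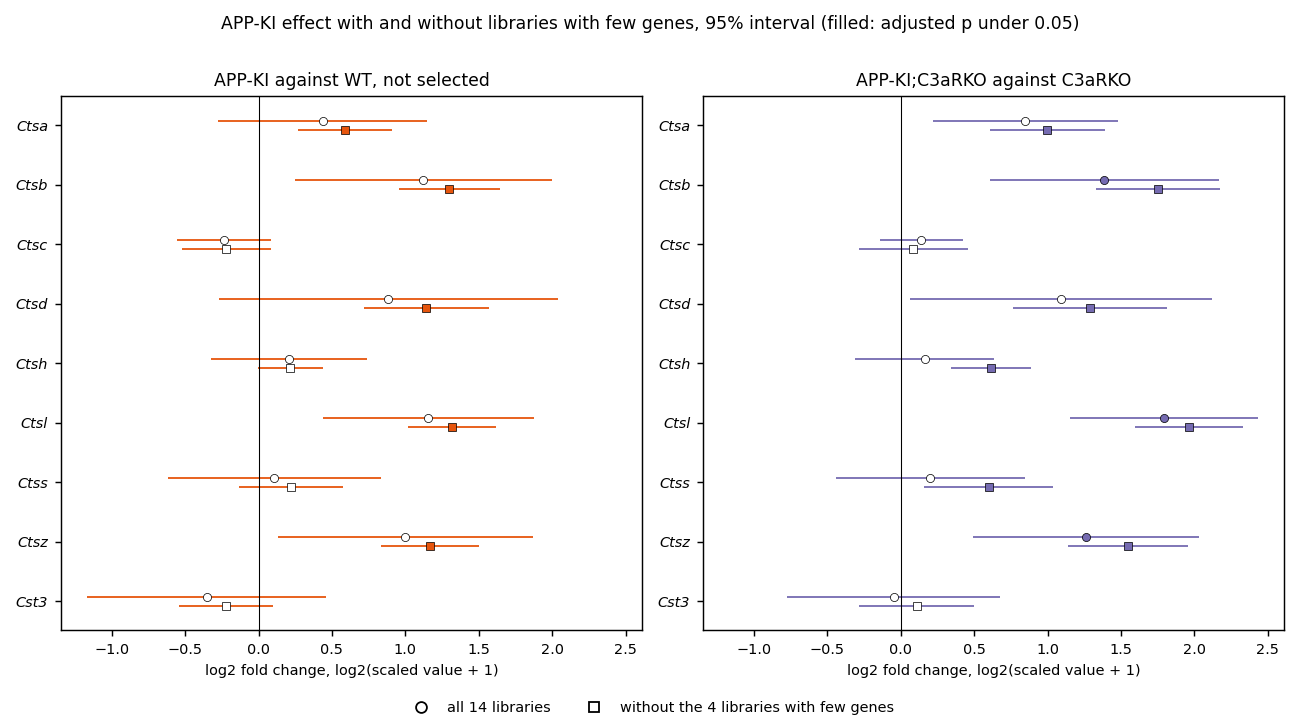
Log2 fold change and 95% interval of the 8 cathepsins and Cst3 for the mutated App gene with C3ar1 (left) and without it (right), from all 14 unselected libraries (circles) and without the 4 with few genes (squares). Filled symbols have an adjusted p under 0.05, and among the genes drawn their number goes from 0 to 5 on the left and from 3 to 7 on the right.

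The size of the APP-KI difference in C3aR-positive and in unselected microglia was compared directly in the 12 WT and APP-KI libraries. No member was called by limma and none of 12589 genes was (0% called). At an unadjusted p under 0.05 there were 902 genes and 4 members, Ctsa, Ctsc, Ctsl and Ctsz. Neither edgeR nor DESeq2 called a member, while DESeq2 called 37 genes and edgeR 0. The difference of the differences was 1.18 for Ctsd (-0.01 to 2.38), 0.79 for Ctsb (-0.08 to 1.67) and -0.02 for Cst7 (-1.58 to 1.53). The interval of Ctsd, for one, ran from near 0 to over 2 log2 units.

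Loss of C3ar1 was next compared with mutated App absent or present. C3ar1 itself fell by 2.39 between C3aRKO and WT (SE 0.27, adjusted p = 0.0034) and by 1.95 between APP-KI;C3aRKO and APP-KI (SE 0.24, adjusted p = 0.0097). It was the only gene that limma called in either, 0.00806% of 12406, and DESeq2 called 9 genes between C3aRKO and WT. No member was called by limma, edgeR or DESeq2, and none had an unadjusted p under 0.05. Each comparison uses a group also used above, so their values are not independent of those.

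Between C3aRKO and WT all 10 members had lower fitted values, by 0.02 for Ctsh to 0.54 for Cst7, with a median of -0.24 against -0.03 over all genes. This direction hung on single libraries. With 1 library left out the median ran from -0.46 without C3aRKO 1 to 0.09 without WT 4, and every other one was negative. Ctsa, Ctsb, Ctsd, Ctsh, Ctss and Ctsz changed sign in 1 to 3 of these 14 fits. Ctsl was at 569.8, 282 and 590.1 in C3aRKO, below all 3 WT libraries, with an interval of -1.22 to 0.22. Ctsa at 887, 461 and 1036 and Cst3 at 8772, 4878 and 8943 were also below WT throughout, and 18.5% of genes did not overlap between these groups. In 8 of the 10 members the lowest value was that of C3aRKO 2, a library with few genes. Ctsd, at 3423, 1589.9 and 5203, spread over more than 3-fold, with C3aRKO 3 above all WT libraries. Cst7 was at 1.12, 2.20 and 6.36, or 76 to 407 reads. With C3aRKO 3 as the only C3aRKO library left, and its spread assumed to be that of the other groups, Ctsl differed by -0.45 (-0.83 to -0.07) and Ctsd by -0.02 (-0.57 to 0.52), and 0.0159% of genes and no member were called.

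Between APP-KI;C3aRKO and APP-KI, the comparison of C3ar1 loss in plaque-bearing mice, no member had separated groups, and 1.61% of genes did. Ctsd was at 1990.5, 8069, 14389, 11893 and 13042 in APP-KI;C3aRKO and Ctsb at 2055, 5369, 8825, 8169 and 10058. Replicate 1, again a library with few genes, was lowest in both and replicate 3 or 5 highest. Cst7 was at 279.8, 1061, 1714, 1531 and 1822. The changes lay between -0.06 for Ctsh and 0.14 for Ctsl. Their intervals were -1.03 to 1.03 for Ctsd, -0.72 to 0.84 for Ctsb, -0.79 to 0.98 for Cst7 and -0.15 to 0.42 for Ctsc, so a change of 1 log2 unit in either direction lay within the interval of Ctsd. Without the libraries with few genes these narrowed to -0.29 to 0.53, -0.17 to 0.50 and -0.30 to 0.49 for Ctsd, Ctsb and Cst7, with no member and 0.00796% of genes called.

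The mutated App gene was then compared in mice that all lacked C3ar1. Ctsb, Ctsl, Ctsz and Cst7 rose in APP-KI;C3aRKO over C3aRKO, where 6.93% of genes were called, 3.96% as higher. Cst7 went from 1.12, 2.20 and 6.36 in C3aRKO to 279.8, 1061, 1714, 1531 and 1822 in APP-KI;C3aRKO (7.81 ± 0.41, adjusted p = 2.2e-08). Ctsl went from 569.8, 282 and 590.1 to 803, 1782, 1985, 2407 and 2691 (1.79 ± 0.30, adjusted p = 0.0018). These were the members with no overlap, against 13.7% of genes. Ctsb (1.39 ± 0.37, adjusted p = 0.033) and Ctsz (1.26 ± 0.36, adjusted p = 0.049) overlapped only through APP-KI;C3aRKO 1. Their calls were not stable. With 1 library left out, Ctsb was called in 5 of 14 fits and Ctsz in 2, while Ctsl and Cst7 were called in all 14. DESeq2 did not call Ctsb (DESeq2 adjusted p = 0.193).

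Ctsz was at 794, 510.3 and 1175 in C3aRKO and 666, 2146, 3729, 3309 and 3559 in APP-KI;C3aRKO. Ctsa (0.85 ± 0.30, adjusted p = 0.11) and Ctsd (1.09 ± 0.48, adjusted p = 0.22) did not pass, and neither did Ctsh, Ctss, Ctsc and Cst3, whose changes lay between -0.05 and 0.20. Ctss was at 6387, 4719 and 5772 in C3aRKO and 3819.8, 6345, 8094, 8648 and 10256 in APP-KI;C3aRKO. Ctsc was at 263, 309 and 375 against 308, 332, 353, 373 and 481, with wide overlap. Ctsh was at 388, 291 and 333 against 204, 385, 548, 500.2 and 519. Its APP-KI;C3aRKO 1 lay below all C3aRKO libraries, APP-KI;C3aRKO 2 within their range and the others above it. Cst3 was at 3984, 8016, 9583, 9657 and 9699 in APP-KI;C3aRKO, with replicate 1 below all C3aRKO libraries. Without the libraries with few genes, 8 members were called, all but Ctsc (0.08) and Cst3 (0.11), and 31.3% of genes were, 13.2% as higher. Only C3aRKO 3 then stands for its group, so the spread comes from the other groups alone, and the count was 8 again with APP-KI 5 left out as well (34.3% of genes called, 14.3% as higher). Within series 24 the difference was 0.97 for Ctsb, 0.78 for Ctsd, 1.58 for Ctsl and 7.71 for Cst7, and within series 26, where C3aRKO 3 is again alone, it was 1.81, 1.33, 1.99 and 7.84. Called members numbered 1 in series 24, where 0.621% of genes were called, and 8 in series 26, where 40.4% were. The count of 4 moved to 6 without APP-KI;C3aRKO 1 and to 2 without any one of 9 other libraries, named with the limits.

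Whether C3ar1 loss acted differently with and without mutated App was tested as an interaction. It was 0.64 for Ctsl (-0.35 to 1.62), 0.21 for Ctsd (-1.37 to 1.79) and 0.64 for Cst7 (-0.72 to 1.99). No member and no gene was called by limma (0% of 12406), and 203 genes but no member had an unadjusted p under 0.05. Neither edgeR nor DESeq2 called a member, while DESeq2 called 1 gene and edgeR 0.

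A share of reads needs no scaling by the authors. The 8 cathepsins took 1.27%, 1.37% and 1.30% of reads in WT C3aR+ and 3.17%, 3.11% and 3.75% in APP-KI C3aR+, a difference of 2.03 percentage points with no overlap. The exact permutation p was 0.1, two-sided, the smallest possible with 3 against 3 libraries (adjusted p = 0.357 over 10 comparisons). In the unselected groups they took 1.62%, 1.89% and 1.81% in WT, 1.42%, 2.64% and 3.58% in APP-KI, 1.47%, 0.967% and 1.66% in C3aRKO, and 1.10%, 2.64%, 3.83%, 3.65% and 3.91% in APP-KI;C3aRKO. APP-KI exceeded WT by 0.772 points (exact permutation p = 0.4, adjusted p = 0.571), by 0.409 within series 24 and 1.73 within series 26. APP-KI;C3aRKO exceeded C3aRKO by 1.66 points (exact permutation p = 0.107, adjusted p = 0.357), by 0.652 within series 24 and 2.13 within series 26. APP-KI;C3aRKO exceeded APP-KI by 0.478 points (exact permutation p = 0.571, adjusted p = 0.571), with -0.161 within series 24 and 0.216 within series 26. The difference of C3aRKO from WT was -0.409 points (exact permutation p = 0.2, adjusted p = 0.5), or -0.405 within series 24 and -0.187 within series 26.

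The ratio of both cystatins was higher in every library with mutated App than in any without it. Per 100 reads on Cst3, the libraries of APP-KI C3aR+ held 15.7 ± 6.42 reads on Cst7 (SD, n = 3). Unselected microglia held 12.6 ± 6.35 when only App was mutated (SD, n = 3) and 14.6 ± 4.72 when C3ar1 was lacking too (SD, n = 5). The ratio was 0.160 ± 0.139 in WT C3aR+, 0.0678 ± 0.0253 in WT and 0.0430 ± 0.0292 in C3aRKO (SD, n = 3 each). The summed share of both cystatins differed by 0.304 points between the C3aR-positive groups (exact permutation p = 0.3, adjusted p = 0.536), and Cst3 held most of it in every library.

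**Figure D4:**
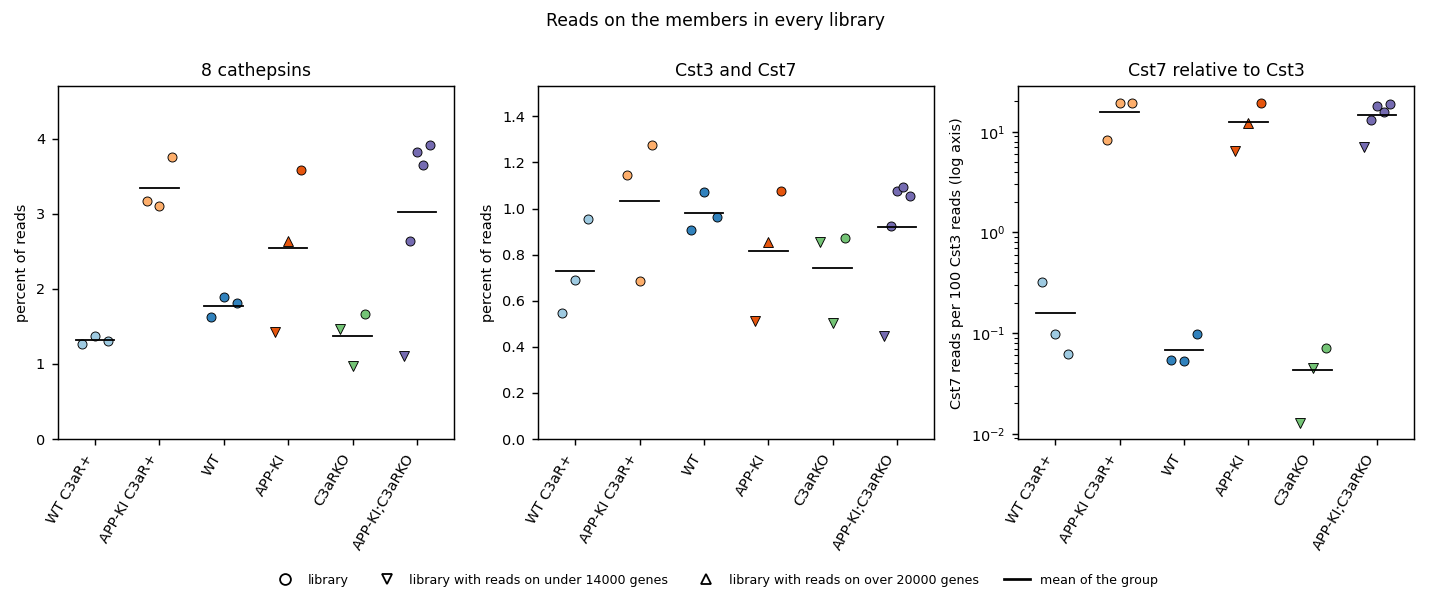
Percent of reads on the 8 cathepsins (left) and on both cystatins (middle), and Cst7 reads per 100 Cst3 reads on a log axis (right), for each library, with bars at group means and triangles for libraries that stand apart by their number of genes. The cathepsin share is 3.11% to 3.75% in APP-KI C3aR+ and 1.27% to 1.37% in WT C3aR+.

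Further genes of the pathway were read from lists, and these too were chosen with results of these data known. The counts for these lists stand beside a share of 22.7% called over all genes tested between the C3aR-positive groups, 13% as higher. Between the C3aR-positive groups, 5 of 15 other cathepsins passed the filter and 1 rose, Ctse, an aspartic protease of the endosome, at 1.71 to 6.01 in WT C3aR+ and 29.5 to 128 in APP-KI C3aR+ (4.14 ± 0.54, adjusted p = 0.00076). Ctsf, Ctsk, Ctso and Ctsw had values of -0.36, -0.57, -0.35 and -0.65 and did not pass. Among other inhibitors, 2 of 5 measured rose. Cstb, the cytosolic cystatin B, was at 4.85 to 7.13 in WT C3aR+ and 19.8 to 31.4 in APP-KI C3aR+ (1.95 ± 0.31, adjusted p = 0.0021), and Serpinb6b also rose (1.92 ± 0.48, adjusted p = 0.018).

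The genes that mature and sort cathepsins split. Of 12 measured, 7 rose and 2 fell, with a median of 0.78. Gnptab, a subunit of the enzyme that makes the mannose 6-phosphate tag, was at 53.9 to 58.1 in WT C3aR+ and 139 to 213 in APP-KI C3aR+ (1.52 ± 0.17, adjusted p = 0.00029). Gnptg, Nagpa, M6pr, Gga2, Psap and Grn rose by 0.74 to 1.04. Lgmn, the legumain that cuts some cysteine cathepsins into their 2-chain forms, was at 3457 to 4004 in WT C3aR+ and 2306 to 2608 in APP-KI C3aR+ and fell (-0.61 ± 0.16, adjusted p = 0.026), as did Sort1 (-0.55 ± 0.16, adjusted p = 0.031), a sorting receptor.

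Of 29 other lysosomal genes 20 rose and 2 fell, with a median of 0.97. Cd63 (2.07), Gla (1.98) and Glb1 (1.90) were highest, and Sgsh (-1.22) and Ids (-0.58), which degrade heparan sulfate, fell. Among invariant chain and MHC class II genes 1 of 6 rose, where 13% of all genes did. It was Cd74, the invariant chain that Ctss cuts (1.75 ± 0.39, adjusted p = 0.012). Of the TFEB family of factors that bind the E-box, 3 of 4 were measured. Mitf rose (0.85 ± 0.14, adjusted p = 0.0026), while Tfeb (-0.44) and Tfe3 (-0.03) did not pass. None of 5 granule proteases that cathepsin C activates passed the filter here.

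**Figure D5:**
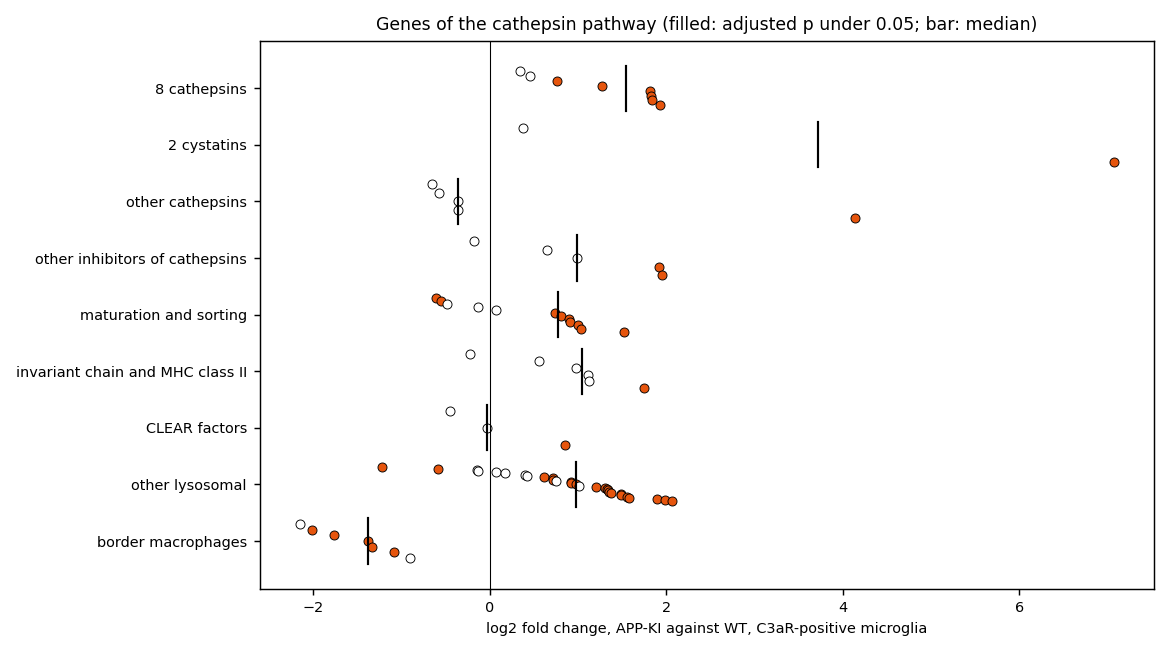
Log2 fold change between APP-KI C3aR+ and WT C3aR+ for each measured gene of 9 lists, 1 point a gene, filled for an adjusted p under 0.05, with bars at list medians. The medians of the 8 cathepsins (1.54) and of the other lysosomal genes (0.97) lie above 0, and that of the border macrophage markers (-1.38) below it.

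In unselected microglia, fewer of these genes passed. Of all genes 4.14% were called between APP-KI and WT, 2.22% as higher. Between APP-KI;C3aRKO and C3aRKO these shares were 6.93% and 3.96%. Between APP-KI and WT, Gnptab rose (1.35 ± 0.17, adjusted p = 0.00023), as did 3 of 29 other lysosomal genes, Gla, Galns and Cd63. Between APP-KI;C3aRKO and C3aRKO, Ctse (3.14 ± 0.88, adjusted p = 0.046), Cstb (1.79 ± 0.40, adjusted p = 0.013) and Gnptab (1.55 ± 0.15, adjusted p = 1.3e-05) rose, with 6 of 29 other lysosomal genes and 4 of 6 invariant chain and MHC class II genes, led by Cd74 (1.84 ± 0.42, adjusted p = 0.016). No gene of these lists was called for C3ar1 loss in either background.

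Markers of other cells moved beside the members. Between the C3aR-positive groups, where 22.7% of all genes were called in either direction, 5 of 7 border macrophage markers fell. Their sum was 484 to 713 in WT C3aR+ and 184 to 414 in APP-KI C3aR+. All 7 were detected in both. Among 6 astrocyte markers tested, 1 was called higher and 1 lower, and 1 of 5 oligodendrocyte markers tested was called higher. Of 9 microglial markers, 4 fell, among them P2ry12 (-1.04) and Tmem119 (-1.45), with sums of 23439 to 25774 and 16980 to 20345. The sum of 5 endothelial markers was 34.8 to 78.9 and 166 to 322, with Flt1 higher (3.75) and Pecam1 lower (-2.09). Only Flt1 lay above 0 among the 4 endothelial markers tested, and their median was -1.03. In unselected APP-KI against WT, Mrc1 (-1.69) and F13a1 (-1.38) of the border macrophage markers and Sall1 (-0.94) of the microglial markers fell, while Flt1 rose (4.26). Border macrophage sums were 451 to 1205 in WT and 269 to 291 in APP-KI, and endothelial sums 41.3 to 50.3 and 195 to 254. In APP-KI;C3aRKO against C3aRKO, Mrc1 (-1.19), F13a1 (-0.97) and the monocyte marker Ccr2 (-1.43) fell, and Flt1 (3.80) and the oligodendrocyte marker Mbp (1.06) rose. Only Mbp lay above 0 among the 5 oligodendrocyte markers tested there, and their median was -0.33. There the border macrophage sums were 396 to 604 in C3aRKO and 199.99 to 361 in APP-KI;C3aRKO, and the endothelial sums 31.1 to 52.7 and 78.7 to 259. No marker of these lists was called for C3ar1 loss. The part of these markers in the cathepsin differences was not tested.

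The members fell into like and unlike patterns over the 20 libraries. As a description, Pearson's r of log2(scaled value + 1) was 0.990 for Ctsa with Ctsd, 0.989 for Ctsb with Ctsz and 0.988 for Ctsd with Ctsz, and the lowest values were 0.304 for Ctsc with Cst7 and 0.109 for Cst3 with Cst7. These points share groups and scaling. Among 12374 genes, those most like Cst7 included Flt1 (r = 0.991), Ank, Itgax and Gpnmb (r = 0.990 each). Those most like Ctsb were Ctsz and Pld3 (r = 0.989 each), Serpine2 (0.986), Timp2 (0.985) and Cd9 (0.984). Cst3 was most like C1qa (0.921), Clpp (0.917), Saraf (0.905), Imp3 (0.899) and Fcgr3 (0.893).

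In the GENCODE M21 annotation of GRCm38, Cst7 lies at chr2:150570415-150578944 on the plus strand and Cst3 at chr2:148871722-148875692 on the minus strand. Exons of some members are shared with other genes, and whether the counting used strand is not given in the sources used here. The share of exon bases was 34.4% for Ctsd, with Gm49369 on the same strand. It was 12.8% for Ctsb, with Fdft1 on the opposite strand, and 0.694% for Ctsz, with Nelfcd on the opposite strand. Ctsl shared 26.8% with the antisense gene Gm47123 and 6.09% with Gm49230, a processed pseudogene on the same strand. Ctsa shared 10.5% with Pltp and 6.87% with Neurl2, both on the opposite strand. Where the strand is the same, reads there cannot be told apart between the genes by position. Where it is opposite, this depends on whether the counting used strand. Ctsc, Ctsh, Ctss, Cst3 and Cst7 shared none.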

How the data were processed

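RNA-seq of sorted mouse microglia in 20 libraries was analysed. Per the submitters' processing notes and the study's methods, the authors trimmed reads with cutadapt, aligned them to mm10 with TopHat2, counted with featureCounts and used DESeq2. The deposited values, named FPKM, are a signal: the read count divided by the library's 75th percentile. This was tested on the tables, and 100% of values came out as whole reads within 0.001 in every library. A design on a log scale had been written for FPKM and was kept. Of 21315 symbols, 10 stood on more than 1 row. Values were multiplied by 35.2.

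Main tests were limma 3.58.1 (R 4.3.3) on log2(scaled value + 1), its trend option on, for genes whose scaled values averaged 1 or more, at an adjusted p of 0.05. One fit held the 6 C3aR-positive libraries, another the 14 unselected libraries with the library number series as a term, and a last one the 12 WT and APP-KI libraries for the difference of effects. Shares of recovered reads had exact permutation tests (scipy 1.17.1). All replicate pairs differed by more than sampling noise (chi-square per degree of freedom of 21.6 or more). The limma step was tested on simulated data with 200 changed genes. Depth sets the worth of 1 read, 0.0132 to 0.0786 scaled.

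Alternatives were other pseudocounts, filters and scalings, no trend, edgeR 4.0.16 and DESeq2 1.42.0 on recovered reads, a replicate block, leaving out each library, single series and, added after the data were seen, leaving out libraries with few or many genes. The members, lists and tests were chosen with earlier results of these data known. All 10 members are named in each comparison, listed genes may be named if they average 1 or more, and the 5 most alike genes are named for Cst7, Ctsb and Cst3, except 1 result that is not reported here. Figures were drawn with matplotlib 3.10.9.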

Additional observations from a re-analysis of the deposited data

How the results depend on the processing

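Counts of the 10 members called by limma moved most where libraries were left out. Between APP-KI and WT without the C3aR sort, 1 member was called, and 2 with DESeq2, 7 in series 26 alone (19.6% of genes called), 6 without the libraries with few genes, 6 without all libraries that stand apart, and 1 to 2 when 1 library was left out (2 without APP-KI;C3aRKO 1). Between APP-KI;C3aRKO and C3aRKO, 4 were called, and 2 with no filter, 2 with no trend, 2 with no series term, 2 with only these groups in the fit, 1 in series 24 alone (0.621% of genes called), 8 in series 26 alone (40.4%), 8 without the libraries with few genes (31.3%) and 8 without all libraries that stand apart (34.3%). With 1 library left out it was 2 to 6, at 6 without APP-KI;C3aRKO 1, at 2 without WT 5, WT 6, APP-KI 6, C3aRKO 2, C3aRKO 3 or APP-KI;C3aRKO 2, 3, 4 or 5, and at 3 without WT 4, APP-KI 5 or C3aRKO 1. Between the C3aR-positive groups the count of 7 was 6 to 7 with 1 library left out, where 1777 to 2528 genes were called. Under the other alternatives it was 6 to 9, at 6 with no filter (2184 of 17762 genes called) and at 9 with DESeq2 (3175 of 12312). The median of all genes there was -0.17 as deposited, -0.04 with median ratio scaling and -0.25 with total reads. Counts stayed at 0 for C3ar1 loss, the interaction and the difference of APP-KI effects under every alternative run. Among all genes, DESeq2 called 721 of 12406 between APP-KI and WT, and limma called 837 of 12433 without APP-KI;C3aRKO 1. Between APP-KI;C3aRKO and C3aRKO, 605 of 21305 were called with no filter, 684 of 12406 with no trend and 831 with no series term. With only these groups in the fit it was 443 of 12142, and with 1 library left out 614 to 1397 genes. The cause of each move was not tested.

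Deviations of same-numbered libraries had r of 0.022, 0.038 and -0.012 between the C3aR-positive groups. The r was 0.254, 0.093 and 0.095 between APP-KI and WT, and 0.009, -0.031 and 0.241 between APP-KI;C3aRKO and C3aRKO. In none of these comparisons did every library correlate best with its own number. Of the libraries with mutated App, APP-KI C3aR+ 1, APP-KI C3aR+ 2, APP-KI 4, APP-KI 6 and APP-KI;C3aRKO 3 did. These values neither show nor exclude a pairing. With a replicate block, 7, 1 and 1 members were called in these comparisons, and 2240 of 12312, 673 of 12844 and 151 of 12153 genes were. Between the C3aR-positive groups Ctsh then gained its call (adjusted p = 0.0437) and Ctss lost it (adjusted p = 0.0898) by limma. Of single-member values, 1710 kept their side of the threshold, 37 gained a call and 43 lost one, and no called value changed sign.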
